A study of Canis lupus familiaris with 28 samples.

Results

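TGFB1, the receptors TGFBR1 and TGFBR2, and the SMAD genes SMAD2, SMAD3, SMAD4 and SMAD7 were examined in the blood of dogs with atopic dermatitis (AD) and of healthy dogs. These 7 genes were chosen by name, beside 12318 gene symbols on the array, and every probe carrying one of the names was used. SMAD2, SMAD4, SMAD7, TGFB1, TGFBR1 and TGFBR2 were represented by 12 probes. No probe carried SMAD3 in its name or description, and SMAD3 was not analysed here. All 12 probes passed the filter on signal, and on each of the 28 arrays their signal from the dog's RNA stood well above background.

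RNA came from blood collected into tubes with an RNA stabiliser, one array per dog, from 20 AD dogs and 8 healthy dogs. According to the methods, these were privately owned dogs of various breeds and both sexes, and the AD dogs were diagnosed clinically once parasites, infection and food had been set aside as causes, with allergy tests done after weeks off anti-inflammatory drugs. The labels name whole blood and the methods nucleated blood cells, and the labels name no treatment for either group. The dog's RNA was labelled with Cy5 and hybridised together with Cy3-labelled RNA pooled from healthy dogs outside both groups, so each value is a log2 ratio of dog over common reference, centred on the median of its array. Breeds varied within both groups. Blood holds many cell types, so fewer cells of a type and less RNA per cell cannot be told apart here. Healthy dogs were on slides 2 and 3, scanned on 1 day, and AD dogs on the other 6 slides, scanned on 4 other days, so slide, scan day and disease cannot be told apart. The share of probes well above background ran from 51.7% to 87.5% among AD arrays and from 84.3% to 90.3% among healthy arrays. As markers of blood, all 9 T cell genes, all 9 neutrophil genes and all 7 erythroid genes tested were above background on every array. So were 6 of 7 cytotoxic cell genes, 6 of 7 monocyte genes, 6 of 7 platelet genes and 5 of 8 B cell genes with a probe. The remaining gene of the cytotoxic list, the natural killer cell gene NCR1, was not above background on most arrays.

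TGF-beta is secreted in a latent form and, once released, binds the receptor TGFBR2, which recruits and phosphorylates TGFBR1. The active receptor phosphorylates SMAD2 and SMAD3, which join SMAD4 and enter the nucleus to regulate transcription, while SMAD7 blocks the receptor and closes the loop. In blood and skin the pathway is known for restraining lymphocyte activation and for the differentiation of regulatory T cells.

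None of the 12 probes differed between AD and healthy dogs after adjustment over the 30202 probes tested (limma, Benjamini-Hochberg, smallest adjusted p 0.490 over all probes, 0 called at the study's threshold of 0.085 and 1847 with an unadjusted p under 0.05). One of the 12, a SMAD2 probe that was lower in AD dogs, had an unadjusted p under 0.05. Over all probes tested this share was 6.12% in either direction and 4.46% for lower in AD dogs, so the count for these genes was near the background. The plot of every dog's ratio shows overlapping groups for all 12 probes.

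**Figure D1:**
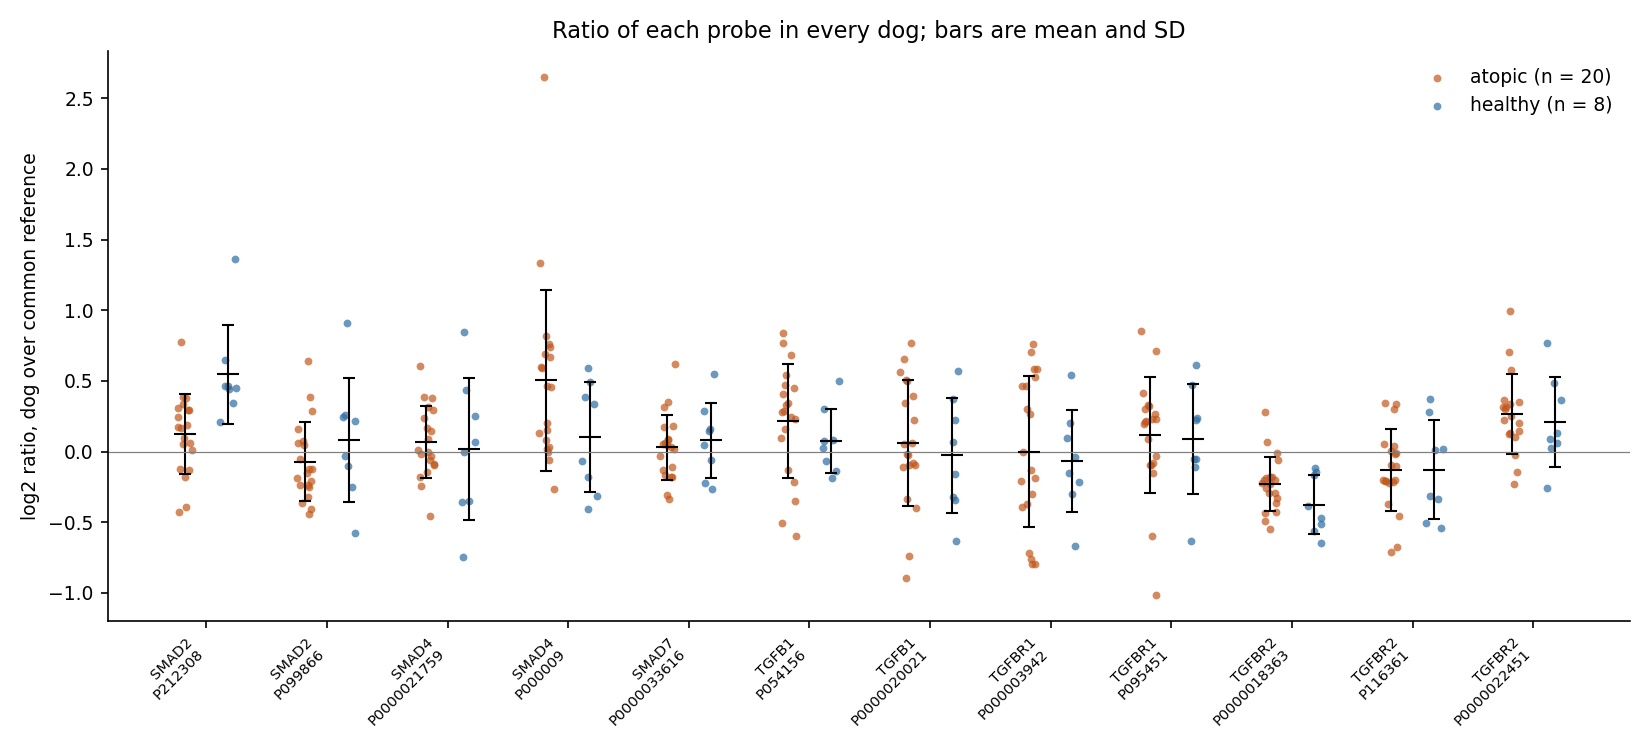
Log2 ratio of dog over common reference (y axis) for each of the 12 probes (x axis, gene and probe) in the 20 AD dogs and 8 healthy dogs, with bars for mean and SD. The groups overlap for every probe, and 1 AD dog lies at 2.65 for the second SMAD4 probe.

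SMAD2, the receptor-activated SMAD of the TGF-beta and activin branch, had a pair of probes, of which 1 had an unadjusted p under 0.05. The difference between them was not tested. Probe A_11_P099866 ends in the letters of a stop codon and lies at chr7:43769833-43769889 of canFam3 on the plus strand, and probe A_11_P212308 starts 389 bases past its end, at chr7:43770278-43770335 on the same strand. The first is shown whole with the stop codon in capitals, and the first 30 bases of the second are shown because they hold a repeat, given in capitals.
SMAD2 A_11_P099866: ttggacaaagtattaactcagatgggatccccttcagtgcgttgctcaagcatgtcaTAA
SMAD2 A_11_P212308: GTGTGTGTGTGTGctgcttcttgatttagg

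By probe A_11_P212308, the brighter of the pair, the log2 ratio was -0.43 in the lowest AD dog, 0.17 at the median and 0.78 in the highest, against 0.21, 0.46 and 1.36 in healthy dogs. The AD dogs had a mean of 0.13 ± 0.28 (SD, n = 20), and the healthy dogs one of 0.55 ± 0.35 (SD, n = 8). Of the 20 AD dogs, 19 lay below the mean of the healthy dogs and 8 lay within their range. The log2 difference was -0.42 (SE 0.132, 95% interval -0.69 to -0.15), with p = 0.00326 and adjusted p = 0.490 by limma and p = 0.00163 in a two-sided exact permutation test over samples. SMAD2 is among the genes that the study listed as lower in AD dogs at its threshold, on these samples. This difference is therefore not independent evidence of its direction. Healthy dog 5, at 1.36, stood above the other healthy dogs, which reached at most 0.65. Without this dog the difference was -0.31 (limma p = 0.0177), and without slide 3, which held it, -0.32 (limma p = 0.0602). With array weights it was -0.36 and passed the threshold (limma adjusted p = 0.0615), the only one of the 12 probes to do so under any alternative. That fit called 1009 of all 30202 probes tested, against 0 without weights.

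By probe A_11_P099866 the log2 ratio ran from -0.44 to 0.64 in AD dogs (median -0.14) and from -0.58 to 0.91 in healthy dogs (median 0.09). All 20 AD dogs lay inside the range of the healthy dogs. The difference was -0.15 (SE 0.141, 95% interval -0.44 to 0.13, limma p = 0.283). This interval holds both no difference and the value of the other probe. The pair correlated with r = 0.38 in AD dogs (rho 0.37, permutation p = 0.0951, adjusted over 7 pairs of probes 0.222) and with r = -0.16 in healthy dogs (exact permutation p = 0.638). After slide means were subtracted, r in AD dogs was 0.55 (permutation within slides, p = 0.0376, adjusted 0.0878).

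**Figure D2:**
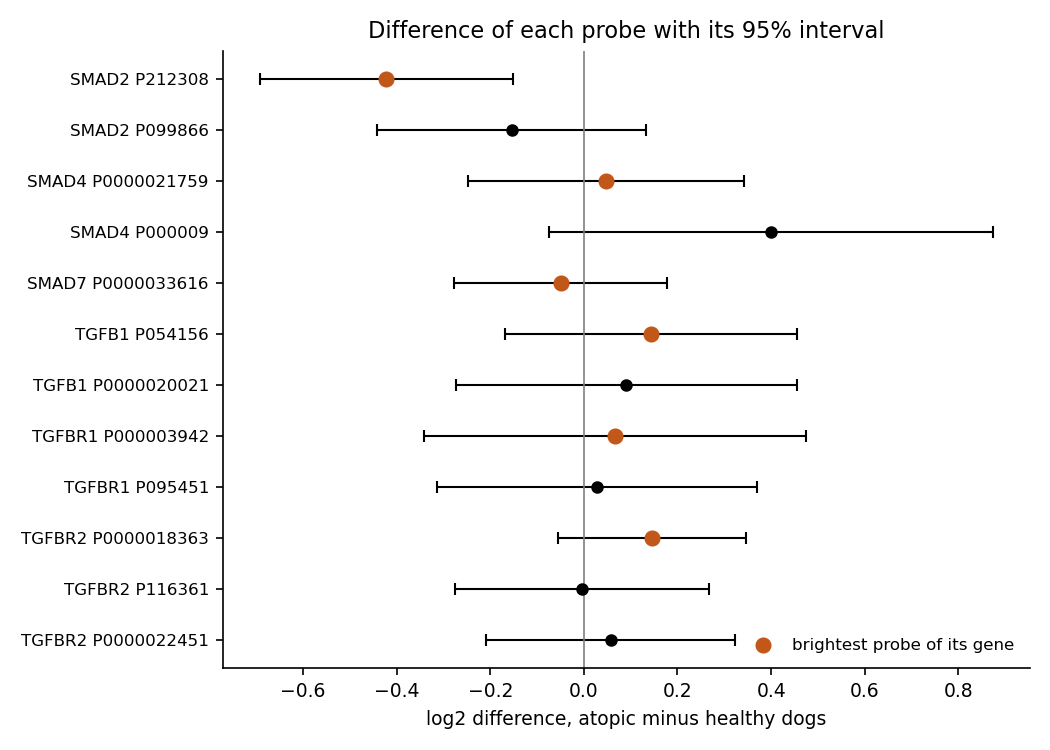
Log2 difference, AD minus healthy dogs (x axis), for each of the 12 probes (y axis) with its 95% interval from limma. The brightest probe of each gene is coloured, and only the interval of SMAD2 probe A_11_P212308, from -0.69 to -0.15, does not hold 0.

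The repeat at the start of A_11_P212308 was looked at after the values had been seen, so what follows is a description with no test. A run of 6 GT units was present in 18 of the 43603 probes on the array (0.0413%), all of which passed the filter on signal, and A_11_P212308 was the only one among the 12 probes of these genes. The array lists the other 17 under names other than SMAD2, among them PTP4A2, a protein tyrosine phosphatase, TMEM2, SEPW1, NUFIP2, ANKRD23 and PADI2. The rest carry only probe or transcript names, and where they lie relative to SMAD2 was not examined. Stretches of 30 bases of a few named probes are shown, with their longest alternation of G and T in capitals, as examples whose ratios followed that of the SMAD2 probe. EPHB3, an ephrin receptor, holds an interrupted run below 6 units and was the symbol most alike to SMAD2.
EPHB3 A_11_P126541: ttTGTGTGTGTctgtgtgtgcgtgtgtgtc
TMEM2 A_11_P196558: gtgttTGTGTGTGTGTGTttgtgtgtgtgt
PTP4A2 A_11_P124306: gtttgtggggaGTGTGTGTGTGTGTGTGTG

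Each of the 17 other probes with the run was lower in AD dogs, with log2 differences from -0.84 to -0.38 and a median of -0.47. Among the 30178 probes tested without the run on either strand the median difference was -0.01, and 4.35% were at or below -0.38. In AD dogs the correlation of these 17 probes with A_11_P212308 had a median r of 0.84, with 14 of 17 above 0.7, against a median of 0.00 and 2.17% above 0.7 for probes without the run. The lowest of the 17, at r = -0.01, was 1 probe with no gene symbol. Among 1332 probes without the run whose signal lay between the lower and upper quartiles of the 17, 8.26% had r above 0.7.

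In AD dogs the median r with A_11_P212308 rose with run length up to 6 GT units and stayed level beyond. Each set includes the longer runs. The median r was 0.22 over 600 probes with at least 3 GT units, 0.40 over 121 with at least 4 and 0.73 over 31 with at least 5. With at least 6, 7 and 8 units it was 0.84 each. In healthy dogs it was 0.10, 0.58, 0.81 and 0.86 with at least 3, 4, 5 and 6 units. With at least 7 and 8 it fell to 0.67 and 0.61. The 6 probes with the run on the other strand (6 AC units) had a median r of 0.67 and a median difference of -0.67. Dog by dog, the median ratio of the 17 probes correlated with A_11_P212308 at r = 0.92 over the 20 AD dogs (rho 0.96, 0.88 without the 2 dogs farthest from the median) and at r = 0.88 over the 8 healthy dogs (rho 0.83, 0.72 without the 2 farthest). With probe A_11_P099866 it was r = 0.36 (rho 0.28) in AD dogs and 0.25 (rho 0.12) in healthy dogs. These points share their arrays. When background was corrected by normexp and dyes by loess, the median difference of the 17 probes was -0.33, and with the dog channel alone -0.36. In the common reference channel, which held the same RNA on every array, it was 0.16 on AD arrays relative to healthy arrays, and that of A_11_P212308 was 0.13. The part of the repeat in the SMAD2 difference was not tested.

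**Figure D3:**
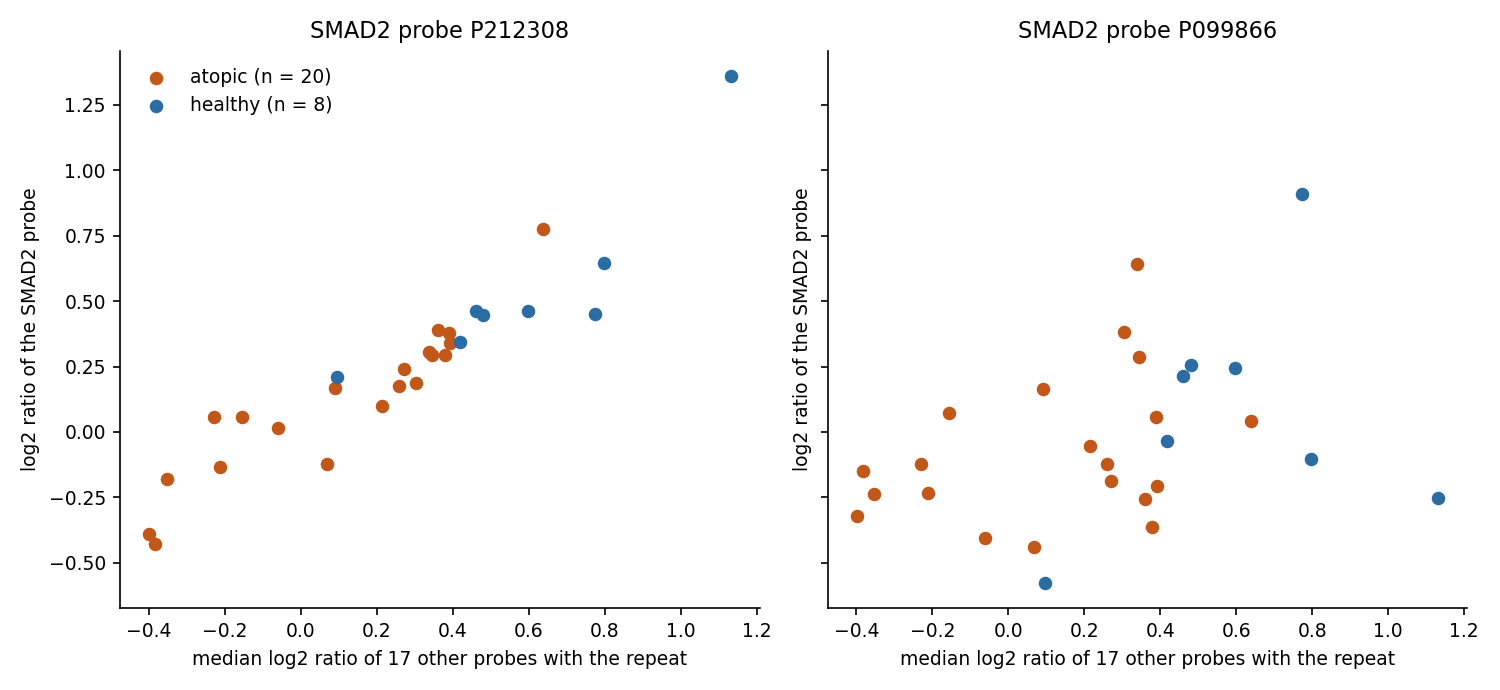
Log2 ratio of each SMAD2 probe (y axis) against the median log2 ratio of the 17 other probes with a run of 6 GT units (x axis), 1 point for each dog. Probe A_11_P212308 follows the repeat probes (r = 0.92 in AD dogs, 0.88 in healthy dogs), and probe A_11_P099866 is less close (r = 0.36 and 0.25).

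SMAD4 is the common partner that joins the receptor-activated SMADs. By its brighter probe, A_11_P0000021759 (chr1:23882017-23882076, minus strand), ratios ran from -0.46 to 0.61 in AD dogs (median 0.00) and from -0.75 to 0.85 in healthy dogs (median 0.03). The healthy dogs spread more widely, with an SD of 0.50 against 0.25. The difference was 0.05 (SE 0.145, 95% interval -0.25 to 0.34, limma p = 0.744). Its sign turned to -0.06 without healthy dog 5, -0.12 without slide 3 and -0.11 with array weights.

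The second SMAD4 probe, A_11_P000009, spans 504 bases of the genome (chr1:23912291-23912794, minus strand) for 60 bases of sequence. It was dim, with a median signal of 157 from the dogs and 121 from the common reference. Its sequence is given because 1 dog stood far apart on it.
SMAD4 A_11_P000009: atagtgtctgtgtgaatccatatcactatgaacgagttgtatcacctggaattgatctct
AD dog 8 was at 2.65, the next AD dog at 1.33, and the median of AD dogs at 0.46, against a range of -0.41 to 0.59 in healthy dogs. The brighter SMAD4 probe was at 0.17 in AD dog 8. The difference was 0.40 (SE 0.232, 95% interval -0.07 to 0.87, limma p = 0.0950) and 0.29 without AD dog 8 (limma p = 0.0952). In the dog channel alone it was 0.77 (limma p = 0.0171, adjusted p = 0.193), and with normexp and loess 0.09 (limma p = 0.115), while the common reference on the same spots was 0.41 brighter on AD arrays (limma p = 0.0340, adjusted p = 0.0859). The SMAD4 probes correlated at r = 0.35 in AD dogs (rho 0.58, permutation p = 0.137 and 0.0096, adjusted 0.240 and 0.0223) and at r = 0.85 in healthy dogs (exact permutation p = 0.00804, adjusted 0.0188).

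SMAD7, the inhibitory SMAD, had 1 probe at chr7:79734353-79734412. Ratios ran from -0.34 to 0.62 in AD dogs (median 0.04) and from -0.26 to 0.55 in healthy dogs (median 0.09). The difference was -0.05 (SE 0.112, 95% interval -0.28 to 0.18, limma p = 0.661), and without healthy dog 5 it was 0.02.

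TGFB1, the ligand itself, was measured by a pair of probes whose 60 bases span more of the genome than their length, at chr1:112642941-112643617 and chr1:112637036-112642873 on the plus strand. They are shown because they had the highest correlation of the 7 pairs of probes in AD dogs.
TGFB1 A_11_P054156: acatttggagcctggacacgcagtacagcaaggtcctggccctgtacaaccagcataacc
TGFB1 A_11_P0000020021: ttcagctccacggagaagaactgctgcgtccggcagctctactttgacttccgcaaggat
By A_11_P054156 the ratio was -0.60 in the lowest AD dog, 0.28 at the median and 0.84 in the highest, against -0.19, 0.05 and 0.50 in healthy dogs. Above the healthy mean lay 15 of 20 AD dogs. The difference was 0.14 (SE 0.153, 95% interval -0.17 to 0.45, limma p = 0.356), and 0.28 with array weights (limma p = 0.0144, adjusted p = 0.155). By A_11_P0000020021 the difference was 0.09 (SE 0.179, limma p = 0.616). The pair correlated at r = 0.72 in AD dogs (rho 0.63, permutation p = 0.000460, adjusted 0.00322), at 0.61 without the 2 dogs farthest from the median and at 0.71 within slides. In healthy dogs r was 0.28 (exact permutation p = 0.499). A further pair of probes, listed under transcript names but described as TGFB1, had differences of 0.35 (limma p = 0.151) and 0.03 (limma p = 0.845).

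TGFBR1, the type I receptor kinase, had a pair of probes 3973 bases apart on chromosome 11. Probe A_11_P095451 (chr11:56218535-56218594, plus strand) ends in the letters of a stop codon, given in capitals, and the brighter probe A_11_P000003942 lies downstream at chr11:56222567-56222626.
TGFBR1 A_11_P095451: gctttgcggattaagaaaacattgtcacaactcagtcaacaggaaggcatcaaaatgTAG
By the brighter probe, ratios ran from -0.80 to 0.76 in AD dogs (median -0.07) and from -0.67 to 0.54 in healthy dogs (median -0.10), a difference of 0.07 (SE 0.200, limma p = 0.740). By A_11_P095451 they ran from -1.02 to 0.85 (median 0.21) and from -0.63 to 0.61 (median 0.09), a difference of 0.03 (SE 0.167, limma p = 0.868). Both small differences took the other sign without healthy dog 5, at -0.02 and -0.07. The TGFBR1 probes correlated at r = 0.12 in AD dogs (rho 0.18, permutation p = 0.617, adjusted 0.617) and at r = 0.87 in healthy dogs (exact permutation p = 0.00789, adjusted 0.0188). Whether this correlation differed between the groups was not tested.

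TGFBR2, the type II receptor that binds the ligand, had 3 probes on the minus strand of chromosome 23. A_11_P0000018363 and A_11_P116361 lie close together (starts 13888180 and 13887178), and A_11_P0000022451 lies farther upstream at chr23:13905589-13905648. By A_11_P0000018363, the brightest, ratios ran from -0.55 to 0.28 in AD dogs (median -0.23) and from -0.64 to -0.12 in healthy dogs (median -0.43). All 8 healthy dogs were below 0, and 16 of 20 AD dogs lay above the healthy mean. The difference was 0.15 (SE 0.0985, 95% interval -0.05 to 0.35, limma p = 0.147, exact permutation p = 0.0881), with 0.29 without slide 2 (limma p = 0.0333, adjusted p = 0.817), 0.01 without slide 3 (limma p = 0.965) and 0.03 in the dog channel alone (limma p = 0.822). The other probes gave -0.00 (A_11_P116361, SE 0.133) and 0.06 (A_11_P0000022451, SE 0.130). The last rests on 19 AD dogs, since 1 spot with an outlier mark was set aside, and with that spot kept it was -0.06.

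The neighbouring TGFBR2 probes A_11_P0000018363 and A_11_P116361 correlated at r = 0.61 in AD dogs (rho 0.60, permutation p = 0.00390, adjusted 0.0136), and at 0.70 within slides. In healthy dogs these neighbours had r = 0.70 (exact permutation p = 0.0658, adjusted 0.0922), and 0.13 within the 2 slides. The distant probe correlated with the neighbouring probes at r = 0.23 and -0.16 in AD dogs (permutation p = 0.342 and 0.502). In healthy dogs its r was 0.87 and 0.79 (exact permutation p = 0.00399 and 0.0178, adjusted 0.0188 and 0.0312), falling to 0.71 and 0.35 within the 2 slides. An adjusted p of 0.05 was passed by 2 of the 7 pairs of probes in AD dogs and by 4 in healthy dogs. By Spearman's rho 3 passed in AD dogs and 0 in healthy dogs, where 3 had an unadjusted exact permutation p under 0.05. Within slides 2 passed in AD dogs and 0 in healthy dogs, where 2 had an unadjusted exact permutation p under 0.05. Without scan day 5, the weakest, 0 of the 7 passed in the 14 AD dogs that remained, and 2 had an unadjusted permutation p under 0.05.

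Among the brightest probes of the 6 genes, 15 pairs were compared. In AD dogs TGFB1 and TGFBR1 were inversely related, with r = -0.71 (rho -0.66, permutation p = 0.000400, adjusted 0.00600). The value was -0.68 without the 2 dogs farthest from the median and -0.76 within slides (permutation p = 0.00120, adjusted 0.0180). The sign depended on the TGFBR1 probe. With the downstream TGFBR1 probe, r was -0.71 and -0.57 for the TGFB1 probes, and with the probe that ends in the stop codon it was 0.31 and 0.38. Over 16 alternatives r ran from -0.84 to -0.30, and 13 of them passed adjustment. The brightest TGFB1 probe was itself strongly correlated with many probes, and the lowest 5% of its r with all probes tested lay at or below -0.70. In healthy dogs the r of TGFB1 and TGFBR1 was -0.63 (exact permutation p = 0.0963, adjusted 0.361).

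SMAD2 by A_11_P212308 correlated with TGFBR2 at r = 0.57 in AD dogs (rho 0.63, permutation p = 0.00925, adjusted 0.0646), and at 0.65 within slides (adjusted 0.0933). By SMAD2 probe A_11_P099866 that r was 0.38 (permutation p = 0.0946, adjusted 0.203). TGFB1 and TGFBR2 had r = -0.54 (permutation p = 0.0129, adjusted 0.0646). SMAD2 with TGFBR2, TGFB1 with TGFBR2 and SMAD4 with TGFBR1 (r = 0.51, permutation p = 0.0232, adjusted 0.0808) did not pass an adjusted p of 0.05 by Pearson's r. By Spearman's rho, SMAD2 with TGFBR2 and TGFB1 with TGFBR2 did, each with an adjusted p of 0.0262. The plot of correlations gives all 15 in each group.

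**Figure D4:**
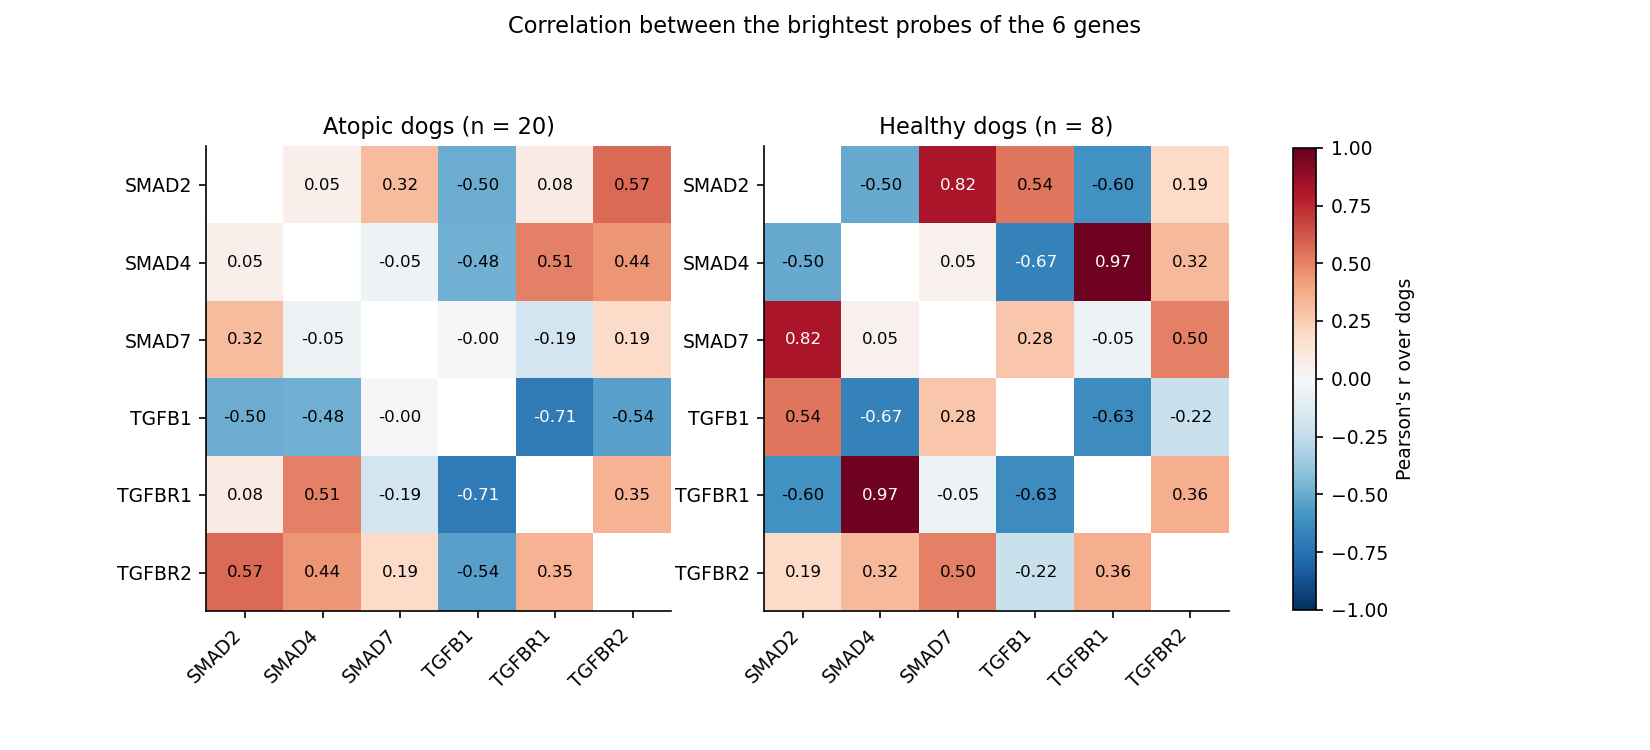
Pearson's r between the brightest probes of the 6 genes over the 20 AD dogs and the 8 healthy dogs, with colour from -1 to 1. TGFB1 with TGFBR1 is at -0.71 in AD dogs and SMAD4 with TGFBR1 at 0.97 in healthy dogs, the pairs that passed adjustment.

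In healthy dogs SMAD4 and TGFBR1 correlated at r = 0.97 (rho 0.95, exact permutation p = 0.000347, adjusted 0.00521). Without the 2 dogs farthest from the median r was 0.90, and within the 2 slides 0.98 (exact permutation within slides, p = 0.00174, adjusted 0.0260). With the other probes of these genes r ran from 0.68 to 0.78 in healthy dogs, and over all combinations of probes from 0.11 to 0.51 in AD dogs. With 8 dogs high r was frequent, since the highest 5% of r of this SMAD4 probe with all probes tested lay at or above 0.84. Whether r differed between the groups was not tested. SMAD2 with SMAD7 had r = 0.82 in healthy dogs (exact permutation p = 0.00811, adjusted 0.0608), and 0.34 without the 2 dogs farthest from the median. Its rho was 0.67 (exact permutation p = 0.0831) and its r within slides 0.87 (adjusted 0.208). Over 9 alternatives r ran from 0.76 to 0.87, and none passed adjustment. By probe A_11_P099866, SMAD2 with SMAD4 had r = 0.80 in healthy dogs (exact permutation p = 0.0168, adjusted 0.126), against -0.50 by A_11_P212308 (exact permutation p = 0.215).

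None of 48 relations between the 6 genes and 7 lists of blood cell markers or the share of probes well above background passed adjustment in AD dogs. At an unadjusted p under 0.05 there were 8 of the 48. How many of all probes tested were so related to these lists was not examined. In AD dogs the lowest 5% of r with all single probes lay at or below -0.52 for SMAD2, -0.45 for TGFBR1 and -0.46 for TGFBR2. For SMAD7 the outer 5% lay at or below -0.42 and at or above 0.53. The highest 5% for TGFB1 lay at or above 0.64. SMAD2 by A_11_P212308 was inversely related to the neutrophil markers (r = -0.59, rho -0.61, permutation p = 0.00674, adjusted 0.162) and the platelet markers (r = -0.53, rho -0.50, permutation p = 0.0173, adjusted 0.213). SMAD7 was directly related to the monocyte markers (r = 0.60, rho 0.54, permutation p = 0.00450, adjusted 0.162, 0.35 without the 2 farthest dogs), and TGFBR1 inversely (r = -0.52, permutation p = 0.0193, adjusted 0.213). The erythroid markers were inversely related to SMAD7 (r = -0.51, rho -0.48, permutation p = 0.0222, adjusted 0.213, -0.19 without the 2 farthest dogs) and TGFBR2 (r = -0.47, rho -0.46, permutation p = 0.0357, adjusted 0.257). TGFB1 was directly related to the erythroid markers (r = 0.47, rho 0.40, permutation p = 0.0375, adjusted 0.257) and the neutrophil markers (r = 0.46, rho 0.54, permutation p = 0.0438, adjusted 0.263). For SMAD2 and the erythroid markers r was -0.43 (permutation p = 0.0614) and rho -0.54 (permutation p = 0.0153), and neither passed adjustment. With the share of probes well above background, SMAD2 by A_11_P212308 had r = 0.14 and rho 0.26 in AD dogs. Within slides its r was 0.64 (permutation within slides, p = 0.0155, adjusted 0.186). For TGFBR2 and that share r was 0.37 and rho 0.49 (permutation p of rho 0.0277, adjusted 0.190). The part of that share in the SMAD2 difference was not tested. The mean of the 9 neutrophil markers ran from -0.40 to 1.51 in AD dogs (median 0.39) and from -0.24 to 0.59 in healthy dogs (median 0.12). The mean of the 6 platelet markers tested ran from -1.01 to 0.63 (median -0.29) and from -0.93 to 0.77 (median 0.21). The mean of the 7 erythroid markers ran from -1.54 to 1.35 in AD dogs (median 0.43) and from -1.33 to 1.11 in healthy dogs (median -0.18). The part of these markers in the SMAD2 difference was not tested. With the T cell markers as a covariate the SMAD2 difference was -0.41 (limma p = 0.00491). SMAD2 by A_11_P212308 was little related to the T cell markers in AD dogs (r = 0.09, permutation p = 0.706). No other list was used as a covariate, so that fit does not bear on the other cell types.

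The channels were also tested apart. In the common reference channel 3 of the 12 probes differed between AD and healthy arrays at an adjusted p of at most 0.085, against 39.4% of all probes tested. They were A_11_P0000020021 for TGFB1 (0.29), A_11_P000003942 for TGFBR1 (0.33) and A_11_P116361 for TGFBR2 (0.24), all brighter on AD arrays. In the dog channel alone 0 of the 12 passed, against 3.48% of all probes. There 4 of the 12 had an unadjusted p under 0.05, against 19.2% of all probes. Across the 4 scan days of AD dogs, limma's moderated F test called 0 of the 12 probes, against 3.81% of all probes. The lowest p was that of TGFBR2 by A_11_P0000022451 (limma p = 0.0235, adjusted p = 0.291), which had a mean of 0.62 on day 1 and of 0.03 on day 5.

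Of 77 other gene symbols of the pathway, among them CTGF and CCN2 for the same gene, 65 were on the array and 56 passed the filter. By their brightest probes, 4 were higher and 2 lower in AD dogs at an unadjusted p under 0.05, and 0 passed the adjusted threshold. Over all probes tested 6.12% had such a p, 1.65% higher and 4.46% lower in AD dogs. The median difference was 0.05, against -0.01 over all probes tested. Of 15 ligands and latency factors, 1 was higher and 1 lower. Of 8 receptors and co-receptors, 1 was lower, and none of 3 other SMADs passed. Of 19 SMAD regulators 1 was higher, and of 11 targets 2 were higher.

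JUNB, an AP-1 subunit induced by TGF-beta, ran from -0.46 to 1.29 in AD dogs (median 0.31) and from -0.78 to 0.37 in healthy dogs (median -0.15). Its difference was 0.53 (SE 0.200, limma p = 0.0119, adjusted p = 0.552). CXCR4, a chemokine receptor of leukocyte homing, was at 0.34 at the median of AD dogs and 0.09 in healthy dogs, with a difference of 0.39 (SE 0.181, limma p = 0.0373, adjusted p = 0.758), and its other probe gave 0.41. The ligand BMP7 had a difference of 0.50 (SE 0.199, limma p = 0.0186). STRAP, a partner of the receptors and SMAD7, had one of 0.29 (SE 0.139, limma p = 0.0442), with 0.20 by its other probe. THBS1, which activates latent TGF-beta and is abundant in platelets, ran from -1.12 to 1.65 in AD dogs (median -0.24) and from -0.81 to 1.39 in healthy dogs (median 0.59). Its difference was -0.66 (SE 0.273, limma p = 0.0211, adjusted p = 0.643), and -0.28 by its other probe. The median of the platelet markers was also lower in AD dogs, as given above, and its part was not tested. ACVR1B, the activin type I receptor, had a difference of -0.26 (SE 0.119, limma p = 0.0395, adjusted p = 0.772). Without slide 3, 1 of the 56 genes had an unadjusted p under 0.05, and without healthy dog 5, 3 did.

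**Figure D5:**
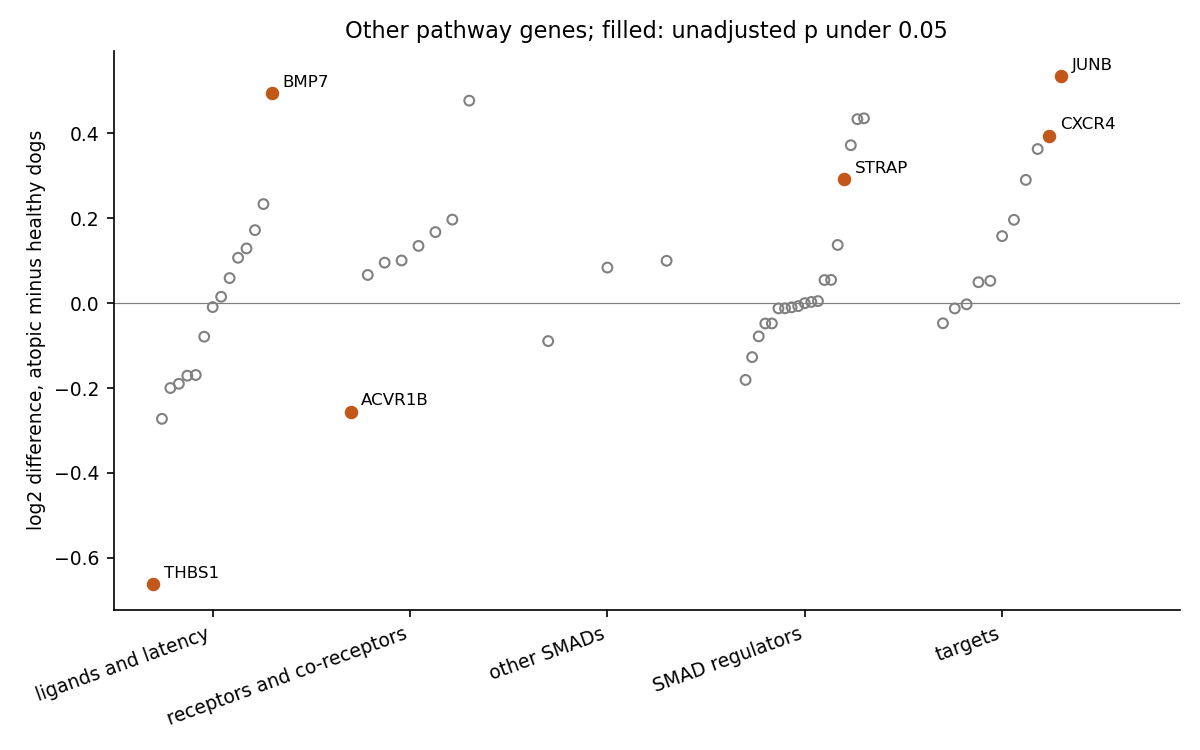
Log2 difference, AD minus healthy dogs (y axis), of the 56 other pathway genes by list (x axis), each gene by its brightest probe and ordered by value. The 6 filled points have an unadjusted p under 0.05 and none passed adjustment.

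Only names in a reference list of gene symbols were ranked here. The symbols whose probes were most alike to each gene were taken over the 28 arrays after the mean of each group was removed. They were EPHB3 (r = 0.96), PTP4A2 (0.87) and MYNN (0.85) for SMAD2 by A_11_P212308. For SMAD4 they were ZBTB41 (0.90), STAG1 (0.90) and TMPO (0.90), and for SMAD7 LRP1 (0.89), LAMB2 (0.84) and FLNA (0.83). For TGFB1 they were GALK1 (0.88), SH2D3C (0.86) and B3GAT3 (0.86). For TGFBR1 they were ELP2 (0.88), GABPB1 (0.87) and SP3 (0.86), and for TGFBR2 SSH1 (0.73), FBXO33 (0.72) and MEPCE (0.71). The longest alternation of G and T was 9 bases in the EPHB3 probe and 19 in the PTP4A2 probe, and at most 5 in the other 16. TMEM2 was not in that list. Its probe A_11_P196558 had r = 0.95 with A_11_P212308 in AD dogs and 0.97 in healthy dogs, against 0.84 and 0.93 for PTP4A2.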

How the data were processed

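RNA from the blood of 20 AD and 8 healthy dogs was measured on 28 two-color arrays. The authors deposited spot intensities on a linear scale, extracted with Agilent Feature Extraction (10.7.3.1 per the submitters' processing notes, 10.10.1.1 per the file headers) after background subtraction, spatial detrending and Lowess dye normalization. The deposited value table holds the log10 ratio of the channels and served as an alternative. Chromosome positions are those the files print for canFam3, and no genome sequence was used.

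Control spots were left out, spots of 1 probe were averaged (43803 spots, 43603 probes), and spots with an outlier mark were set to missing. A probe was kept unless it was never well above background or its median signal was at most 100 in both channels and groups, which left 30202 probes. The study's own filter left fewer, so its threshold was applied here to another set of probes. Log2 ratios of processed signals were centred on each array's median over the probes kept. Groups were compared with lmFit and eBayes of limma 3.58.1 in R 4.3.3, with Benjamini-Hochberg adjustment over all probes tested and the study's threshold of 0.085. Correlations used Python 3.11.15 with numpy 2.4.6, 100000 permutations in AD dogs and all permutations in healthy dogs, adjusted within each family, and permutations within slides where slide means were removed. Scripts were tested on simulated data. Figures used matplotlib 3.10.9.

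The members, the pathway lists and the marker lists were chosen with earlier results of these data known. Named genes were the members with all probes, pathway genes with an unadjusted p under 0.05 by the brightest probe, and the 3 symbols most alike to each member. The GT repeat, the second SMAD2 probe as its representative and the fit without AD dog 8 were chosen after values were seen. Number of arrays and share of probes above background limit the precision. The alternatives varied the signal filter, outlier marks, background correction, centring, channel, source of values, weights, slide, scan day, dog number, T cell markers, probe choice, coefficient and the arrays used.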

Additional observations from a re-analysis of the deposited data

Results flagged for a closer look

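Of the 12 probes, 1 had a healthy dog far from the other healthy dogs. For SMAD2 by probe A_11_P212308, healthy dog 5 was at 1.36, and the gap to the next dog was 0.621 of the range of the 8 dogs, past the critical value of Dixon's test. Chance passes that critical value in about 1 of 20 groups, and 12 groups were looked at. The same dog was also the highest of the healthy dogs for SMAD7 and both TGFB1 probes and the lowest for both SMAD4 and both TGFBR1 probes, without passing that value.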

How the results depend on the processing

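The number of arrays, slides that hold only 1 group and weak signal on scan day 5 limit what these differences can show. SMAD2 by A_11_P212308 stayed lower in AD dogs under all 23 alternatives for this probe (-0.53 to -0.31) and kept an unadjusted limma p under 0.05 in 22, not without slide 3 (p 0.0602). With array weights the adjusted p of this probe passed the threshold. The mean of both SMAD2 probes gave -0.29 (limma p 0.0140). Over all probes, 0 passed in limma (1847 at an unadjusted p under 0.05), against 3 with no filter, 1051 in the dog channel alone and 1009 with array weights. Of the 12 probes, those with an unadjusted p under 0.05 numbered 4 in the dog channel, 3 with array weights and 0 to 2 when single slides were left out (0 without slide 3). Of the pathway genes, they numbered 11 in the dog channel, 12 with array weights, 3 with slide and 3 with scan day as a random block, 3 without healthy dog 5, and 1 to 5 when single slides were left out. The share of all probes with such a p moved too: 6.12% in limma, 19.2% in the dog channel, 20.0% with array weights, 3.98% with slide and 4.88% with scan day as a random block, 5.06% without healthy dog 5 and 2.6% without slide 3. Pairs of genes correlated in AD dogs numbered 2 with no filter, 2 when centred on all probes, 7 in the dog channel, 0 by the mean of all probes, 3 by Spearman's rho and 0 to 3 without single slides (0 without slide 4). In healthy dogs 0 passed by the mean of all probes, and leaving out a slide left too few healthy dogs for a correlation. Pairs of probes numbered 0 without the weakest scan day and 1 to 2 without single slides, and marker relations 2 in the dog channel, 1 by the mean of all probes and 0 to 1 without single slides.

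Small differences turned sign. Without healthy dog 5 SMAD4 by A_11_P0000021759 was -0.062, SMAD7 0.017, TGFBR1 by A_11_P000003942 -0.019 and by A_11_P095451 -0.075. With array weights these SMAD4 and TGFBR1 probes gave -0.11, -0.11 and -0.055, and TGFBR1 by A_11_P095451 gave -0.0052 both with no filter and when centred on all probes. TGFBR2 by A_11_P116361 was 0.00084 with the stricter filter, 0.20 in the dog channel, 0.035 without the weakest scan day and 0.00027 with T cell markers as a covariate, and TGFBR2 by A_11_P0000022451 was -0.064 with the outlier spot kept. Leaving out single slides gave -0.12 to 0.22 for SMAD4 by A_11_P0000021759, -0.093 to 0.23 for TGFBR1 by A_11_P000003942, -0.19 to 0.24 for A_11_P095451, -0.30 to 0.29 for TGFBR2 by A_11_P116361 and -0.17 to 0.29 for A_11_P0000022451. The cause was not tested.

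Dog numbers are shared by both groups but do not pair the dogs: r of their deviations ran from -0.36 to 0.42, above 0.1 in 4 of 8 numbers, and 1 healthy dog correlated best with its own number. With the replicate block 2 of the 12 probes and 11 pathway genes had an unadjusted p under 0.05, against 17.1% of all probes. SMAD2 by A_11_P212308 was -0.47 and TGFBR1 by A_11_P000003942 -0.12.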
